A study of Mus musculus with 24 samples.

Results

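The genes described here are 32 genes of endoplasmic reticulum (ER) stress and of the integrated stress response, measured in mouse liver. They were chosen by gene symbol from a list of known pathway members. The rule uses no measured level, but the list was drawn up with earlier results of these data known. All 32 were found, 1 entry each, among the 24339 genes kept from the tables. They fall into 11 ER chaperones and co-chaperones, 3 protein disulfide isomerases, 7 genes of ER-associated degradation, 6 sensors and transcription factors, and 5 targets of the integrated stress response.

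The study asked how a drug receptor acts in newborn and adult liver, in mice that carry either the mouse or the human form of the receptor. Polyadenylated RNA of 24 liver samples was sequenced, in 8 groups of 3 replicates, all from C57BL/6 mice. hCAR-TG mice, a knock-in of the human constitutive androstane receptor (CAR, the product of Nr1i3), received CITCO, an agonist of human CAR, or corn oil, at day 60 and at day 5 of age. Wild type mice received TCPOBOP, an agonist of mouse CAR, or corn oil, at the same ages. Receptor, ligand and genotype therefore always differ together, and a difference between the CITCO and TCPOBOP responses cannot be assigned to any of them. The labels name neither a dose nor the time between dosing and collection, nor whether replicates came from separate animals, so the p-values rest on the spread among these samples, which may be technical. In whole liver RNA, fewer cells of a type and less RNA per cell cannot be told apart.

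Proteins that enter the ER are folded there by chaperones and disulfide isomerases, and those that fail to fold are drawn back into the cytosol and degraded. When unfolded proteins accumulate, the sensors IRE1 (Ern1), PERK (Eif2ak3) and ATF6 start the unfolded protein response, in which spliced XBP1 and cleaved ATF6 raise transcription of chaperone and degradation genes. PERK also phosphorylates the initiation factor eIF2, as do kinases that sense amino acid shortage, viral RNA or haem shortage, and the factor ATF4 that is then translated raises genes such as Trib3, Asns and Chac1: this branch is the integrated stress response. Splicing, cleavage, phosphorylation and translation are not seen in gene-level values, which give only the amount of mature RNA.

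Totals of FPKM (fragments scaled to transcript length and library size) were 451546 to 502499 per library, and relative depths read from the interval widths were 0.863 to 1.10. Cyp2b10, a CAR target gene, averaged 1226 ± 31 FPKM with CITCO and 225.3 ± 16.5 FPKM with corn oil in adult hCAR-TG livers (SD, n = 3 each). With corn oil it averaged 12.9 ± 4.16 FPKM in adult wild type livers, so the adult corn oil groups differed in this gene before any ligand. At day 5 Cyp2b10 averaged 2.81 ± 2.13 FPKM in hCAR-TG and 4.26 ± 1.18 FPKM in wild type livers with corn oil. In each genotype and age, its lowest ligand library lay above its highest corn oil library. The 12 hepatocyte markers summed to 28488 FPKM or more in every library. The mouse Nr1i3 entry held 8.70 ± 1.56 FPKM in hCAR-TG and 68.2 ± 12.9 FPKM in wild type livers at day 60 with corn oil. How far reads of the human gene enter it is not given in the sources used here. At day 5, 3 libraries carried transcripts of pancreatic acinar cells, another secretory cell type rich in ER: the summed acinar markers were 478.9 FPKM in hCAR-TG CITCO replicate 1, 514.4 FPKM in wild type TCPOBOP replicate 2 and 392.8 FPKM in wild type corn oil replicate 2, and at most 52.1 FPKM in any other library. In the day 60 libraries the sum was 4.88 to 20.2 FPKM and 5 to 14 of the 21 acinar markers were at 0 in every library of a group.

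Because many of these genes are textbook targets of ATF6, XBP1 and ATF4, the promoter sequence shows which of them carry the letters that those factors are known to bind. RefSeq promoters (build GRCm38.p6, 250 bases before to 50 after the gene start) matched 29 of the 32 members. Missing were Hyou1, Manf and Derl1. The ER stress response element (ERSE, CCAAT and CCACG with 9 bases between them, searched on both strands like the others) is the element that nuclear ATF6 binds together with NF-Y. It was found in 9 of the 29 promoters (31%), those of Hspa5, Hsp90b1, Dnajc3, Calr, Canx, Creld2, Pdia6, Derl3 and Syvn1, against 0.119% of 32851 promoters. ERSE-II (ATTGG and CCACG with 1 base between them) was found in Dnajb11 and Herpud1 (6.9% of 29, against 0.0365%). The C/EBP-ATF element CARE (TGATGNAA) that ATF4 binds was found in Herpud1, Atf3, Trib3, Asns and Chac1 (17.2%, against 3.97%). The unfolded protein response element (UPRE, TGACGTGG) was found in 0 of the 29, against 0.676%. ERSE was first defined on promoters of this gene family, so its frequency here is a description and was not tested. No motif matches overlapped each other.

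The promoters of 6 members whose levels carry the results are shown, 5′ to 3′ on the strand of the gene, with motif matches in capitals. Hspa5 (chr2:34771840-34772139, plus strand), Creld2 (chr15:88819396-88819695, plus strand) and Derl3 (chr10:75893148-75893447, plus strand) each hold 1 ERSE, which lies on the reverse strand in Creld2 and Derl3. Herpud1 (chr8:94386179-94386478, plus strand) is the member with both a CARE (reverse strand, the upstream match) and an ERSE-II. Trib3 (chr2:152344011-152344310, minus strand) has a CARE on the reverse strand just after the gene start, and Asns (chr6:7693160-7693459, minus strand) has a CARE just before it.
Hspa5: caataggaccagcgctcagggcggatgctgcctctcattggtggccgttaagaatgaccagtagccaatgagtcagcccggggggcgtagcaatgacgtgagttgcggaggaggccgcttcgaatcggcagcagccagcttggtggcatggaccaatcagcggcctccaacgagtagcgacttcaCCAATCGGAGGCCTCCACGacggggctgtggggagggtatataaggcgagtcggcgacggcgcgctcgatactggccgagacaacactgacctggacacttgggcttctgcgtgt
Creld2: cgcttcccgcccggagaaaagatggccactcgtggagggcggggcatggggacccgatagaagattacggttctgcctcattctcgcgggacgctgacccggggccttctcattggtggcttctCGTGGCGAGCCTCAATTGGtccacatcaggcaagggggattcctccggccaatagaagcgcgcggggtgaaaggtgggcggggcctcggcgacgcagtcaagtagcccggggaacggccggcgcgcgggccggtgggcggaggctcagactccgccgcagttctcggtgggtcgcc
Derl3: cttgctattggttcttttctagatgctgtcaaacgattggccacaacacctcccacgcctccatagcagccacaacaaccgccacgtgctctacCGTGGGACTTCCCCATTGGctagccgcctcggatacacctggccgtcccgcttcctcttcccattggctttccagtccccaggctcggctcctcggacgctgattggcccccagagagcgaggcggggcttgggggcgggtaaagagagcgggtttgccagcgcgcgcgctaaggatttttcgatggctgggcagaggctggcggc
Herpud1: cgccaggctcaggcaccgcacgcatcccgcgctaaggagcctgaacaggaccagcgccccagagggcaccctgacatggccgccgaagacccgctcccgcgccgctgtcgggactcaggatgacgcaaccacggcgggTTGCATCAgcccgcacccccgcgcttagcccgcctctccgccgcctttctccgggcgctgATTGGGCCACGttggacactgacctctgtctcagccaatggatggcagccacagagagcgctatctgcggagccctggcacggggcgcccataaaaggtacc
Trib3: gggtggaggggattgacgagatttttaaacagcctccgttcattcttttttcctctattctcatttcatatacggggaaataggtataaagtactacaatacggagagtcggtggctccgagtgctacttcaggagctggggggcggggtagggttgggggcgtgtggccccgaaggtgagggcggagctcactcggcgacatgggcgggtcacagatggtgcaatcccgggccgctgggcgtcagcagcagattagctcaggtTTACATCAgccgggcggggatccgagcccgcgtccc
Asns: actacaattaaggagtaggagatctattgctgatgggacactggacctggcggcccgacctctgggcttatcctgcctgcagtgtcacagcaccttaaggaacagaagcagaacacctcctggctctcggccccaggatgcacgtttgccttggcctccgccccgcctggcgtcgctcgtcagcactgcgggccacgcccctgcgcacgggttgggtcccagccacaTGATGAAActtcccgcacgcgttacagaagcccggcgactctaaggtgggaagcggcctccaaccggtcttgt

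**Figure D1:**
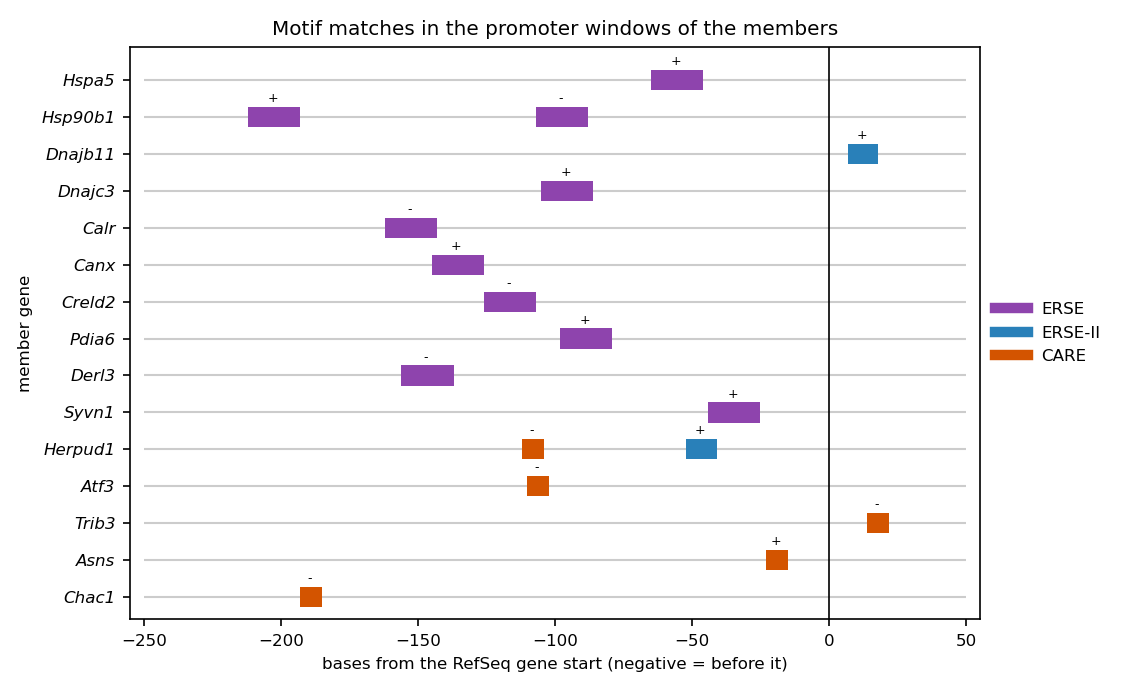
Position of motif matches in the promoter windows of the 15 members with a match (x axis: bases from the RefSeq gene start; + and - give the strand relative to the gene). All 10 ERSE matches lie before the gene start, while the ERSE-II of Dnajb11 and the CARE of Trib3 lie after it.

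The members covered a wide range of levels. Median FPKM over the 24 libraries ran from 401.8 for Calr and 289.1 for Hspa5 down to 0.542 for Derl3 and 0.228 for Chac1. Derl3 and Chac1 reached 1 FPKM in only 7 of 24 libraries, Atf3 in 11 and Asns in 18, so these genes entered the test through the groups in which they were high. Log2 changes below are differences of mean log2(FPKM + 1), which understate the change of such low genes. In their lowest libraries the interval widths of Chac1 and Derl3, read as counting error, correspond to about 4 and 5 fragments.

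Within a group, the chaperone and isomerase genes were high or low together in single libraries. Of the 32 members, 21 had their highest value of all 24 libraries in wild type corn oil replicate 1 at day 60. In that library 28 of 32 members, and 14 of 14 chaperones and isomerases, were the highest of the group of 3. Syvn1, the ubiquitin ligase of ER-associated degradation, was furthest from its group there, with 112, 36.8 and 36.5 FPKM. In hCAR-TG livers at day 60 with corn oil, replicate 1 was highest for 12 of 14 chaperones and isomerases, and in hCAR-TG livers at day 5 with CITCO replicate 1, an acinar library, was highest for 13 of 14. Another acinar library, wild type corn oil replicate 2 at day 5, was likewise highest for 11 of 14. The remaining acinar library, wild type TCPOBOP replicate 2 at day 5, differed and was highest for 2 and lowest for 9 of 14. In hCAR-TG livers at day 5 with corn oil, replicate 3 was lowest for 13 of 14. Values without single libraries are given beside many of the results below.

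**Figure D2:**
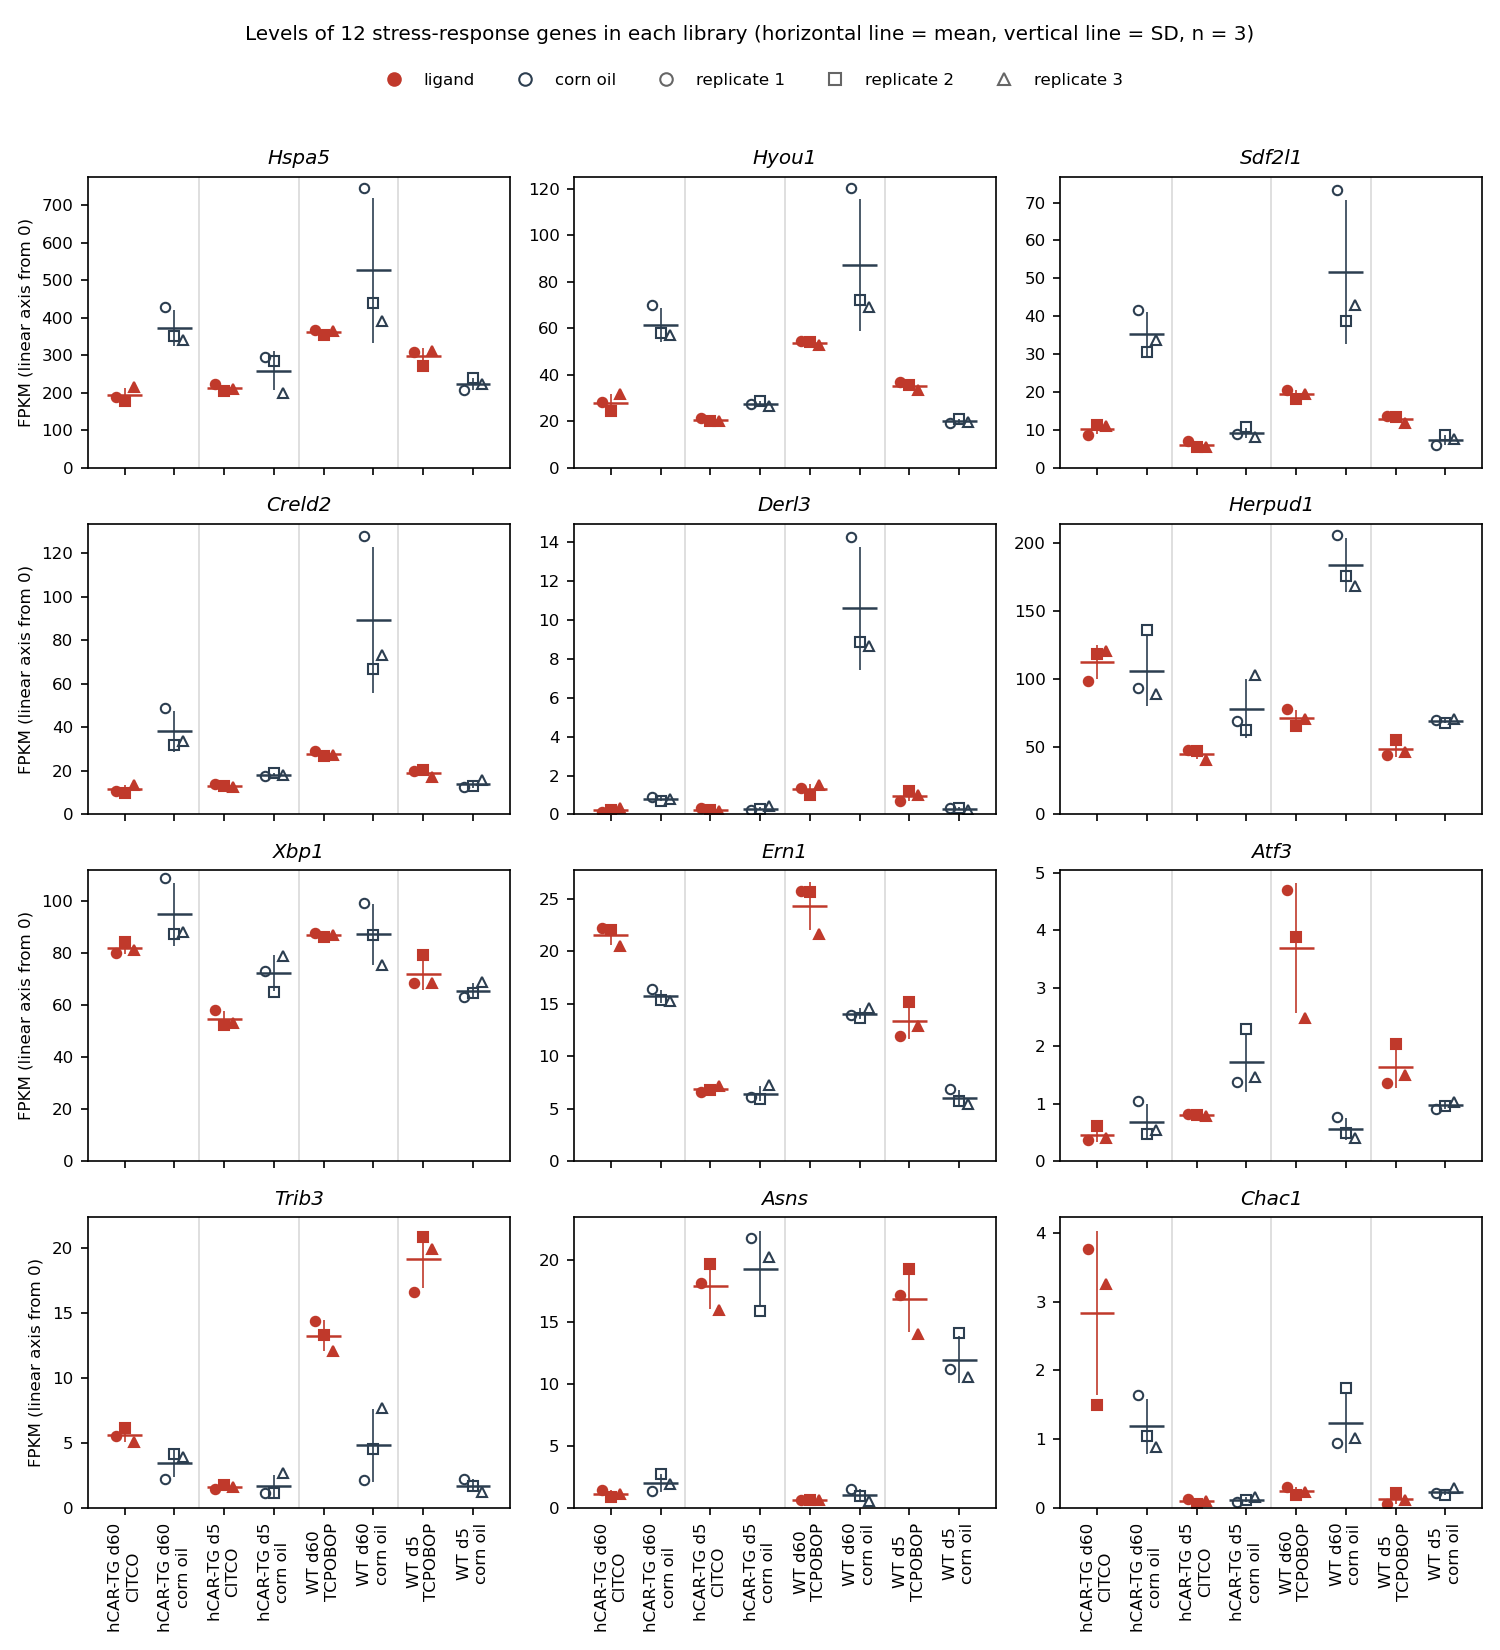
FPKM of 12 members in each of the 24 libraries (y axis, linear from 0), by group along the x axis, ligand in red and corn oil in dark outline; marker shape gives the replicate. Creld2, Sdf2l1 and Hyou1 are highest in the day 60 corn oil groups of both genotypes, Derl3 in that of wild type livers, Trib3 in the TCPOBOP libraries, and Asns in the day 5 libraries.

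In adult hCAR-TG liver (day 60), CITCO went with lower RNA of most of the member ER folding genes. Of the 32 members, 13 were lower and 2 higher than with corn oil (limma on log2(FPKM + 1), Benjamini-Hochberg adjusted p under 0.05 over 12282 genes). Among all tested genes 3.97% were lower and 4.4% higher in this comparison (8.37% called in all). The groups did not overlap for 21 members lower and 2 higher with CITCO, against 16.1% and 15.9% of all tested genes. In the same livers 4 of 12 hepatocyte markers were lower and 1 higher, with a summed level of 46270 to 52622 FPKM with CITCO and 54797 to 63162 FPKM with corn oil, and 3 of 10 stellate cell markers were lower; their part in the result was not tested. The median log2 change of the members was -0.34, against -0.00070 over all tested genes. With the 6 libraries fitted alone, 17 members were lower and 1 higher. The largest decreases were those of Sdf2l1, Creld2, Manf, Hyou1 and Hspa5, and the increases were those of the sensor gene Ern1 and of Chac1.

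Among the 11 chaperones and co-chaperones, 8 fell and none rose. Hspa5 encodes BiP, the main Hsp70 chaperone of the ER lumen, which also holds the sensors inactive. It had 188, 177 and 215 FPKM with CITCO, against 429, 352 and 340.0 FPKM with corn oil (log2 change -0.94 ± 0.17, adjusted p = 0.00153; in log2 changes ± is the SE throughout). All 3 CITCO libraries were lower than each corn oil library. Hyou1, the nucleotide exchange factor of BiP, had 28.2, 24.2 and 31.5 FPKM with CITCO, against 69.8, 57.8 and 56.95 FPKM with corn oil (-1.11 ± 0.14, adjusted p = 1.83e-05). Sdf2l1, an ER lumen protein that works with BiP co-chaperones, had 8.55, 11.1 and 10.99 FPKM with CITCO, against 41.6, 30.5 and 33.7 FPKM with corn oil (-1.69 ± 0.18, adjusted p = 3.02e-06). Creld2, an ER stress-inducible protein with isomerase activity, had 10.9, 10.1 and 13.6 FPKM with CITCO, against 48.7, 31.99 and 33.6 FPKM with corn oil (-1.63 ± 0.18, adjusted p = 4.14e-06). The groups did not overlap for any of these genes, and the change was larger than the spread between replicates in each.

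Manf, a stress-inducible ER protein that can be secreted, had 17.1, 17.9 and 23.8 FPKM with CITCO, against 52.8, 42.7 and 43.3 FPKM with corn oil (-1.20 ± 0.17, adjusted p = 8.36e-05). Dnajb11, a BiP co-chaperone, had 25.9, 25.6 and 27.98 FPKM with CITCO, against 50.5, 44.8 and 43.05 FPKM with corn oil (-0.77 ± 0.11, adjusted p = 6.39e-05). Calr, the lectin chaperone calreticulin, had 274, 312 and 303 FPKM with CITCO, against 474, 450.5 and 439.7 FPKM with corn oil (-0.62 ± 0.08, adjusted p = 4.26e-05). These groups did not overlap either. Hsp90b1, the Hsp90 chaperone of the ER, had 191, 204 and 202 FPKM with CITCO, against 339, 302 and 275 FPKM with corn oil (-0.61 ± 0.17, adjusted p = 0.0327); its call was lost when any of 5 of the 6 libraries was left out, with adjusted p up to 0.138. The co-chaperone Dnajc3 (-0.44 ± 0.15, adjusted p = 0.0695), Dnajb9 (-0.33 ± 0.28, adjusted p = 0.582) and calnexin, Canx (-0.18 ± 0.12, adjusted p = 0.439), did not pass the threshold.

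All 3 protein disulfide isomerases fell with CITCO in adult hCAR-TG liver. Pdia6 had 77.6, 79.7 and 81.1 FPKM with CITCO, against 129.5, 123 and 121 FPKM with corn oil (-0.64 ± 0.06, adjusted p = 2.2e-07). Pdia3, the isomerase that works on glycoproteins held by calreticulin and calnexin, had 108, 115 and 112 FPKM with CITCO, against 166, 158 and 149 FPKM with corn oil (-0.49 ± 0.09, adjusted p = 0.00149). Pdia4 had 66.8, 72.98 and 74.3 FPKM with CITCO, against 107, 98.6 and 98.3 FPKM with corn oil (-0.50 ± 0.10, adjusted p = 0.00345). In each, the highest CITCO library lay below the lowest corn oil library.

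Of the 7 genes of ER-associated degradation, 2 were called lower. Syvn1 was not called, although its CITCO libraries (19.02, 19.5 and 23.1 FPKM) all lay below those with corn oil (36.99, 30.4 and 34.3 FPKM). Edem1, which directs misfolded glycoproteins to degradation, had 28.9, 31.5 and 30.3 FPKM with CITCO, against 40.2, 38.8 and 38.1 FPKM with corn oil (-0.36 ± 0.10, adjusted p = 0.0257). Derl3, a derlin of the retrotranslocation machinery, had 0.109, 0.205 and 0.339 FPKM with CITCO, against 0.8998, 0.6698 and 0.806 FPKM with corn oil (-0.56 ± 0.14, adjusted p = 0.0122). Neither pair of groups overlapped, but neither call was firm: without single libraries the adjusted p reached 0.104 for Edem1 and 0.0687 for Derl3. Herpud1, a membrane component that organises the ubiquitin ligase complex, did not pass, with 98.4, 118 and 121 FPKM with CITCO, against 93.1, 136 and 88.6 FPKM with corn oil (0.11 ± 0.16, adjusted p = 0.799).

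In the signalling genes the picture differed from that of the folding genes. Ern1, the gene of the sensor IRE1, was higher with CITCO, at 22.2, 21.99 and 20.5 FPKM with CITCO, against 16.4, 15.3 and 15.3 FPKM with corn oil (0.43 ± 0.09, adjusted p = 0.00353), and its groups did not overlap. Chac1, which encodes an enzyme that degrades glutathione and is a target of ATF4, had 3.76, 1.495 and 3.25 FPKM with CITCO, against 1.64, 1.05 and 0.881 FPKM with corn oil (0.77 ± 0.17, adjusted p = 0.00624); CITCO replicate 2 lay below corn oil replicate 1. Its call was lost when the 6 libraries were fitted alone (adjusted p = 0.15). Xbp1 had 80.1, 84.2 and 81.2 FPKM with CITCO, against 109, 87.5 and 88.4 FPKM with corn oil (-0.21 ± 0.09, adjusted p = 0.213). Atf4 had 42.97, 39.6 and 42.5 FPKM with CITCO, against 55.7, 46.1 and 49.9 FPKM with corn oil (-0.27 ± 0.10, adjusted p = 0.107). Ddit3, the factor CHOP, had 4.097, 4.11 and 4.62 FPKM with CITCO, against 3.33, 4.52 and 4.62 FPKM with corn oil (0.04 ± 0.13, adjusted p = 0.922). None of these 3 transcription factor genes passed the threshold, although the CITCO libraries of Xbp1 and Atf4 lay below the corn oil libraries.

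In adult wild type liver, TCPOBOP also went with lower RNA of many of the member ER folding and degradation genes, while Atf3 and Trib3 rose. Of the 32 members, 14 were lower and 4 higher than with corn oil, against 15.8% lower and 31.4% higher among all tested genes (47.2% called in all). The groups did not overlap for 15 members lower and 4 higher with TCPOBOP, against 22.3% and 37.7% of all tested genes. The members' median log2 change was -0.21, against 0.06 over all tested genes. In the same livers 4 of 9 erythroid markers were lower and 1 higher, and 4 of 10 endothelial markers were lower and 2 higher (endothelial median 0.04). Of 12 hepatocyte marker genes 9 were lower and 0 higher. Their summed level was 28488 to 31062 FPKM with TCPOBOP and 49594 to 59798 FPKM with corn oil. The part of these markers in the result was not tested. Scaling the libraries by median of ratios moved the split of all calls to 51.1% higher, against 66.5% as deposited, and the members to 4 higher and 17 lower, with Calr, Manf and Pdia4 called lower in addition.

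Of the 11 chaperones and co-chaperones, 7 fell with TCPOBOP and none rose. Creld2 had 29.01, 26.9 and 27.4 FPKM with TCPOBOP, against 128, 66.8 and 73.3 FPKM with corn oil (-1.59 ± 0.18, adjusted p = 3.24e-07). Sdf2l1 had 20.6, 18.1 and 19.3 FPKM with TCPOBOP, against 73.4, 38.6 and 42.8 FPKM with corn oil (-1.32 ± 0.18, adjusted p = 4.56e-06). Corn oil replicate 1 was the highest library in both, and the groups did not overlap with or without it. Dnajb11 had 42.02, 42.5 and 41.05 FPKM with TCPOBOP, against 68.8, 58.2 and 54.4 FPKM with corn oil (-0.51 ± 0.11, adjusted p = 0.000427). Hsp90b1 had 327, 323 and 318 FPKM with TCPOBOP, against 533, 461 and 452 FPKM with corn oil (-0.57 ± 0.17, adjusted p = 0.00985). Dnajc3, a co-chaperone that also restrains eIF2 kinases, had 49.8, 48.3 and 47.5 FPKM with TCPOBOP, against 76.3, 65.6 and 66.5 FPKM with corn oil (-0.51 ± 0.15, adjusted p = 0.00665). These groups did not overlap.

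The call of Hspa5 depended on the library that stood apart, while Hyou1 changed by less without that library and kept its call. Hspa5 had 366, 354 and 366 FPKM with TCPOBOP, against 747, 439.7 and 392.1 FPKM with corn oil (-0.48 ± 0.17, adjusted p = 0.0292). Without corn oil replicate 1 its log2 change was -0.20 (adjusted p = 0.254), and the call was also lost without any of the TCPOBOP libraries (adjusted p = 0.0576 to 0.0725). Hyou1 had 54.7, 54.1 and 52.7 FPKM with TCPOBOP, against 120.2, 72.3 and 69.3 FPKM with corn oil (-0.64 ± 0.14, adjusted p = 0.00063), and without corn oil replicate 1 it changed by -0.39 and was still called (adjusted p = 0.00147). Calr, Manf, Canx and Dnajb9 did not pass; Manf had 45.4, 43.95 and 46.3 FPKM with TCPOBOP, against 88.01, 50.2 and 46.02 FPKM with corn oil (-0.37 ± 0.17, adjusted p = 0.073). Dnajb9, another BiP co-chaperone, had 40.4, 36.05 and 41.7 FPKM with TCPOBOP, against 67.2, 21.4 and 22.6 FPKM with corn oil (0.29 ± 0.28, adjusted p = 0.434). For Dnajb9 corn oil replicate 1 lay above and the other corn oil libraries below every TCPOBOP library. Without that replicate Dnajb9 was called higher with TCPOBOP, at 0.81 (adjusted p = 0.000115), as was the sensor gene Eif2ak3, at 0.59 (adjusted p = 4.53e-06), so that 6 members were higher and 12 lower.

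Among the isomerases Pdia3 fell, with 164, 157 and 158 FPKM with TCPOBOP, against 215, 205 and 192 FPKM with corn oil (-0.35 ± 0.09, adjusted p = 0.00334). Pdia6 had 134, 129 and 130.1 FPKM with TCPOBOP, against 154, 146 and 136 FPKM with corn oil (-0.15 ± 0.06, adjusted p = 0.045), a call that was lost when any of 5 of the 6 libraries was left out, and Pdia4 did not pass (-0.24 ± 0.10, adjusted p = 0.0655).

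The degradation genes held the largest decrease of all members. Derl3 had 1.37, 1.02 and 1.53 FPKM with TCPOBOP, against 14.3, 8.899 and 8.65 FPKM with corn oil (-2.30 ± 0.14, adjusted p = 1.42e-11), with every corn oil library several times above every TCPOBOP library. Herpud1 had 77.8, 65.6 and 70.3 FPKM with TCPOBOP, against 206, 176 and 169 FPKM with corn oil (-1.35 ± 0.16, adjusted p = 7.19e-07), again with no overlap. Syvn1 had 26.9, 25.5 and 27.6 FPKM with TCPOBOP, against 112, 36.8 and 36.5 FPKM with corn oil (-0.97 ± 0.26, adjusted p = 0.00411). Sel1l, the adaptor of the same ubiquitin ligase, had 30, 29.9 and 31.04 FPKM with TCPOBOP, against 52.98, 35.04 and 34.1 FPKM with corn oil (-0.38 ± 0.10, adjusted p = 0.00404). For both, corn oil replicate 1 carried much of the difference: without it the changes were -0.45 for Syvn1 (adjusted p = 0.000583) and -0.18 for Sel1l (adjusted p = 0.0141). With the 6 libraries fitted alone neither was called (adjusted p = 0.145 for Syvn1 and 0.0896 for Sel1l). Derl1, a broadly expressed derlin, rose, with 50.9, 49.2 and 49.7 FPKM with TCPOBOP, against 37.8, 33.4 and 32.5 FPKM with corn oil (0.52 ± 0.06, adjusted p = 1.39e-07).

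Of the signalling and target genes in adult wild type liver, 3 rose and 1 fell. Atf3, a stress-induced factor of the ATF family, had 4.71, 3.88 and 2.48 FPKM with TCPOBOP, against 0.774, 0.498 and 0.4097 FPKM with corn oil (1.56 ± 0.16, adjusted p = 6.23e-08). Ern1 had 25.7, 25.6 and 21.7 FPKM with TCPOBOP, against 13.9, 13.7 and 14.6 FPKM with corn oil (0.75 ± 0.09, adjusted p = 5.88e-07). Trib3, a pseudokinase induced by ATF4 and CHOP, had 14.4, 13.3 and 12.1 FPKM with TCPOBOP, against 2.203, 4.53 and 7.74 FPKM with corn oil (1.41 ± 0.27, adjusted p = 0.000247). In all 3 genes the TCPOBOP libraries lay above the corn oil libraries, although for Trib3 the corn oil libraries themselves ranged widely. Chac1 went the other way, with 0.306, 0.184 and 0.239 FPKM with TCPOBOP, against 0.941, 1.74 and 1.02 FPKM with corn oil (-0.83 ± 0.17, adjusted p = 0.000412).

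The factors upstream of those targets did not pass the test in adult wild type liver. Atf4 had 49.8, 45.7 and 41.2 FPKM with TCPOBOP, against 50.9, 39.2 and 41.1 FPKM with corn oil (0.06 ± 0.10, adjusted p = 0.65). Xbp1 had 87.99, 86.3 and 87.1 FPKM with TCPOBOP, against 99.2, 87.01 and 75.7 FPKM with corn oil (0.01 ± 0.09, adjusted p = 0.975). Ddit3 had 5.51, 4.08 and 4.897 FPKM with TCPOBOP, against 6.04, 5.73 and 4.39 FPKM with corn oil (-0.13 ± 0.13, adjusted p = 0.444). All 3 pairs of groups overlapped. The target Asns, which encodes asparagine synthetase, did not pass either (-0.27 ± 0.18, adjusted p = 0.236).

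The adult responses to CITCO and to TCPOBOP share no libraries, but both come from the same model with a common spread for each gene, so their calls are not independent. Lower in both were Hspa5, Hsp90b1, Hyou1, Dnajb11, Sdf2l1, Creld2, Pdia3, Pdia6 and Derl3, 9 genes that make up 69.2% of the 13 members lower with CITCO and 64.3% of the 14 lower with TCPOBOP. The same overlap over all tested genes was not computed, and the overlap was not tested. Ern1 was higher in both. The difference of the responses (CITCO response minus TCPOBOP response) passed the test for 8 members, 5 lower and 3 higher, against 24.1% lower and 9.77% higher among all tested genes (33.8% called in all), a share of the members below that of all tested genes. Without wild type corn oil replicate 1 the count was 16, 13 lower and 3 higher, with Hspa5, Hyou1, Dnajb9, Sdf2l1, Pdia4, Edem1, Eif2ak3 and Atf4 called lower in addition. Scaling by median of ratios moved the median of all genes by 0.11 and the split of all calls to 46.8% higher, against 28.9% as deposited, and left the members at 5 lower and 3 higher. The same difference was higher for 7 and lower for 0 of 12 hepatocyte markers (median 0.51); their part in the result was not tested.

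The largest of the called differences were those of Atf3, Derl3, Chac1 and Herpud1. Atf3 differed by -1.76 ± 0.22 (adjusted p = 4.02e-06), with a log2 change of -0.19 with CITCO and 1.56 with TCPOBOP. Derl3 differed by 1.74 ± 0.19 (adjusted p = 5.84e-07), Herpud1 by 1.46 ± 0.23 (adjusted p = 5.01e-05) and Chac1 by 1.60 ± 0.24 (adjusted p = 3.07e-05). Derl3 fell by less with CITCO, Herpud1 fell with TCPOBOP and did not pass with CITCO, and Chac1 rose with CITCO and fell with TCPOBOP. Derl1 differed by -0.54 ± 0.08 (adjusted p = 2.05e-05), Manf by -0.83 ± 0.24 (adjusted p = 0.00949), Pdia6 by -0.49 ± 0.08 (adjusted p = 8.95e-05) and Calr by -0.43 ± 0.12 (adjusted p = 0.0067): Derl1 rose with TCPOBOP alone, Manf and Calr fell with CITCO and did not pass with TCPOBOP, and Pdia6 fell with both. For Trib3 the difference of -0.81 ± 0.38 (adjusted p = 0.117) did not pass.

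**Figure D3:**
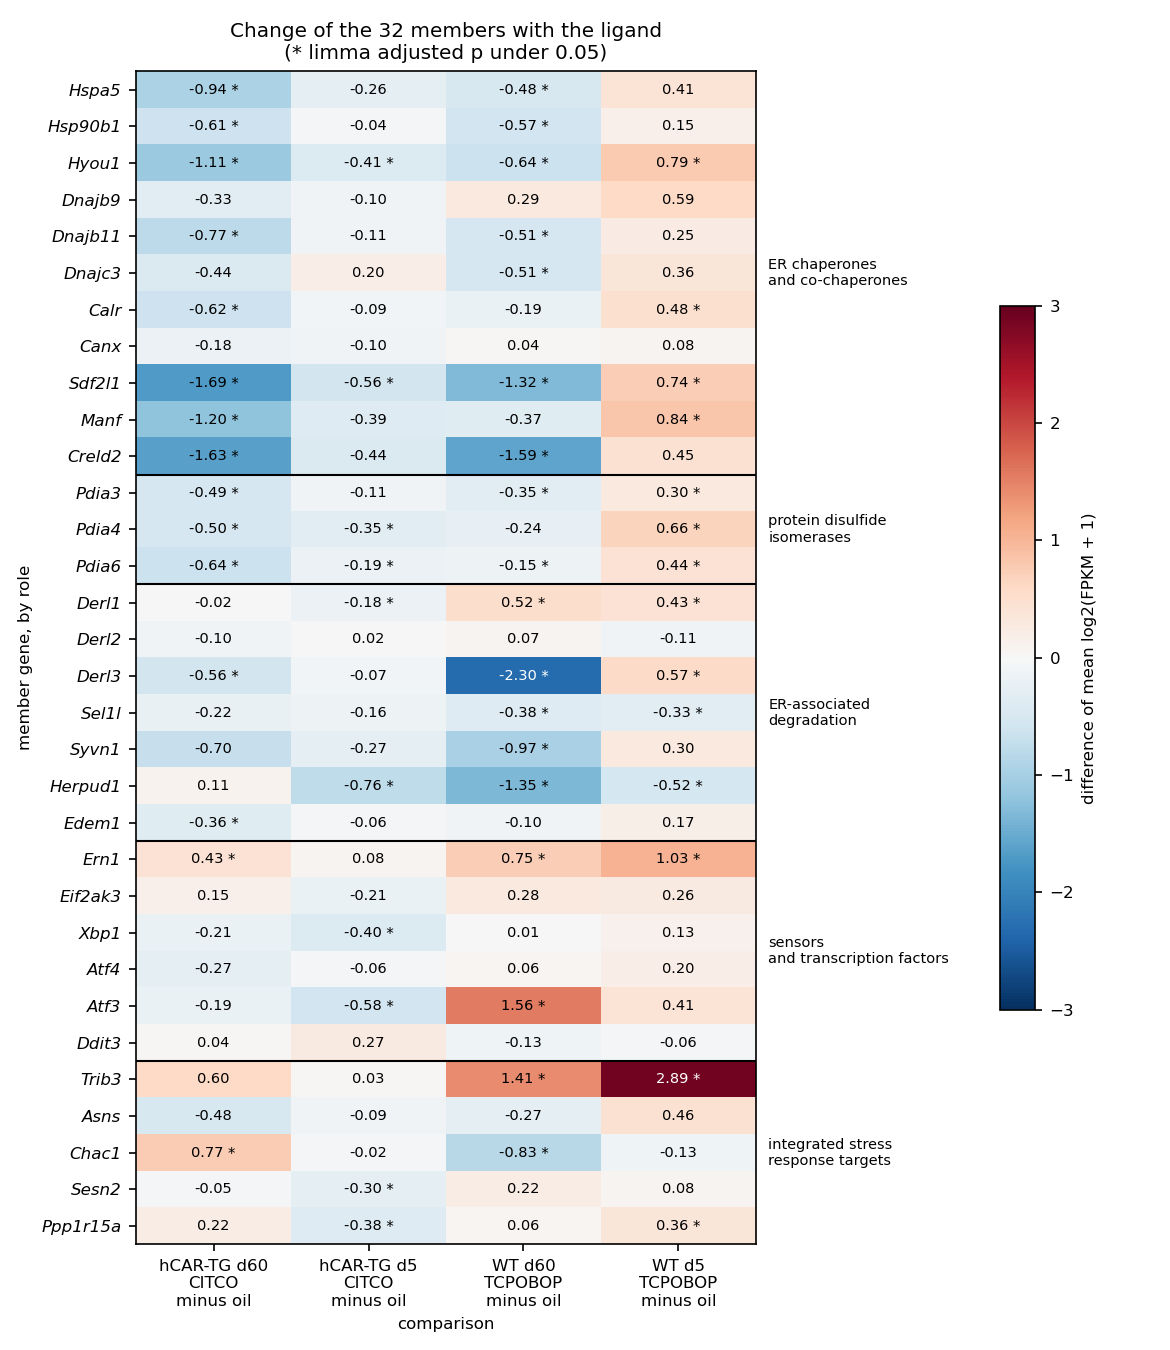
Log2 change (difference of mean log2(FPKM + 1), colour from -3 to 3 and printed value) of the 32 members with the ligand in each genotype and age, rows grouped by role; asterisks mark limma adjusted p under 0.05. Most chaperones and isomerases are blue in both adult comparisons and red in wild type livers at day 5, where Trib3 has the largest value (2.89).

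In newborn hCAR-TG liver (day 5), CITCO went with small decreases. Of the 32 members 10 were lower and 0 higher than with corn oil, against 8.82% lower and 8.27% higher among all tested genes (17.1% called in all), and the median change of the members was -0.14, against 0.01 over all tested genes. The groups did not overlap for 16 members lower and 1 higher, against 17.3% and 17.7% of all tested genes (35% in either direction). Most of these calls were close to the threshold: leaving out single libraries gave 2 to 11 calls, and leaving out the 3 acinar libraries gave 6. The count was 5 without corn oil replicate 1, 3 without corn oil replicate 2, 3 without CITCO replicate 2 and 2 without CITCO replicate 3. With the number that closes the read file names as a factor, 3 members were higher and 4 lower: Hsp90b1 was called higher at 0.64 (adjusted p = 0.000436), Canx at 0.34 (adjusted p = 0.0161) and Dnajc3 at 0.74 (adjusted p = 0.000131). In that model corn oil replicate 3 is the sole corn oil library that shares its number with the CITCO libraries. Without that library 11 were lower and 0 higher, and Hsp90b1 was called lower at -0.38 (adjusted p = 0.00759) and Canx at -0.32 (adjusted p = 0.00807), so the direction of both genes turned with the model. In the same comparison 6 of 10 endothelial, 6 of 9 intestinal epithelial, 6 of 10 immediate early and 3 of 10 neutrophil markers were lower with CITCO, and the summed immediate early genes, which respond within minutes to handling and stress, were 67.6 to 71.2 FPKM with CITCO and 115.3 to 174.9 FPKM with corn oil; their part in the result was not tested.

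The calls that held whichever library was left out were those of Herpud1 and Xbp1. Herpud1 had 47.6, 46.8 and 39.97 FPKM with CITCO, against 69.2, 62.1 and 103 FPKM with corn oil (-0.76 ± 0.16, adjusted p = 0.00343). Xbp1 had 58.1, 52.4 and 53.1 FPKM with CITCO, against 73.2, 65.3 and 78.9 FPKM with corn oil (-0.40 ± 0.09, adjusted p = 0.00642). In both genes the CITCO libraries lay below all corn oil libraries, but with the 6 libraries fitted alone neither was called (adjusted p = 0.078 for Herpud1 and 0.058 for Xbp1).

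Of the folding genes, Hyou1 had 21.5, 20.2 and 19.9 FPKM with CITCO, against 27.4, 28.6 and 26.7 FPKM with corn oil (-0.41 ± 0.14, adjusted p = 0.0481). Sdf2l1 had 6.89, 5.53 and 5.44 FPKM with CITCO, against 8.91, 10.7 and 8.11 FPKM with corn oil (-0.56 ± 0.18, adjusted p = 0.0406). Pdia4 had 67.1, 62.8 and 64.4 FPKM with CITCO, against 91.2, 90.1 and 69.03 FPKM with corn oil (-0.35 ± 0.10, adjusted p = 0.0243). Each pair of groups was separate, for Pdia4 by a narrow margin at corn oil replicate 3. Pdia6 had 83.3, 80.1 and 80.3 FPKM with CITCO, against 98.2, 95.4 and 84.6 FPKM with corn oil (-0.19 ± 0.06, adjusted p = 0.0338). Derl1 had 31.6, 30.6 and 28.8 FPKM with CITCO, against 35.6, 32.4 and 35.7 FPKM with corn oil (-0.18 ± 0.06, adjusted p = 0.0316), differences of a few FPKM. All 5 calls were lost without 1 or another single library. With the read file number in the model, the change of Pdia4 was -0.09 (adjusted p = 0.589) and that of Pdia6 was -0.06 (adjusted p = 0.559).

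Among the stress response genes at day 5, Atf3 had 0.819, 0.806 and 0.7799 FPKM with CITCO, against 1.37, 2.299 and 1.47 FPKM with corn oil (-0.58 ± 0.16, adjusted p = 0.0176). Ppp1r15a, the phosphatase subunit that reverses eIF2 phosphorylation, had 9.91, 9.62 and 9.12 FPKM with CITCO, against 12.01, 14.3 and 12.01 FPKM with corn oil (-0.38 ± 0.10, adjusted p = 0.0126). Sesn2, a stress-induced inhibitor of mTORC1 signalling, had 3.44, 3.43 and 3.15 FPKM with CITCO, against 3.88, 4.24 and 4.96 FPKM with corn oil (-0.30 ± 0.10, adjusted p = 0.0368). The CITCO libraries were the lower ones in each, and these calls too were lost without single libraries. Hspa5 had 223, 205 and 209 FPKM with CITCO, against 295, 284 and 198 FPKM with corn oil (-0.26 ± 0.17, adjusted p = 0.304) and did not pass. Its corn oil replicate 3 lay below all 3 CITCO libraries. Ddit3 had 6.54, 5.81 and 7.096 FPKM with CITCO, against 4.52, 5.59 and 5.53 FPKM with corn oil (0.27 ± 0.13, adjusted p = 0.146), with every CITCO library above the corn oil libraries. Atf4 had 44.5, 42.9 and 41.5 FPKM with CITCO, against 43.2, 41.2 and 50.2 FPKM with corn oil (-0.06 ± 0.10, adjusted p = 0.721), with overlap. Neither passed.

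The other members did not pass with CITCO at day 5, and several of them enter the comparisons between responses given further on. Manf had 16.8, 15.8 and 16.2 FPKM with CITCO, against 21.6, 23.3 and 19.9 FPKM with corn oil (-0.39 ± 0.17, adjusted p = 0.112). Creld2 had 13.8, 12.98 and 12.6 FPKM with CITCO, against 17.5, 18.9 and 18.1 FPKM with corn oil (-0.44 ± 0.18, adjusted p = 0.092). In both the CITCO libraries lay below the corn oil libraries. Calr had 335, 319 and 319 FPKM with CITCO, against 378, 362 and 302 FPKM with corn oil (-0.09 ± 0.08, adjusted p = 0.461). Dnajb11 had 26.2, 23.2 and 22.9 FPKM with CITCO, against 29.8, 28.9 and 20.6 FPKM with corn oil (-0.11 ± 0.11, adjusted p = 0.496). Pdia3 had 132, 124 and 125 FPKM with CITCO, against 159.7, 144 and 111 FPKM with corn oil (-0.11 ± 0.09, adjusted p = 0.436). These groups overlapped, as did those of the sensor gene Ern1, with 6.64, 6.77 and 7.13 FPKM with CITCO, against 6.14, 5.90 and 7.305 FPKM with corn oil (0.08 ± 0.09, adjusted p = 0.564), and of Trib3, with 1.51, 1.76 and 1.62 FPKM with CITCO, against 1.17, 1.13 and 2.702 FPKM with corn oil (0.03 ± 0.27, adjusted p = 0.958). Over the same 6 libraries Derl3 ranged from 0.167 to 0.414 FPKM and Chac1 from 0.0620 to 0.157 FPKM.

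In newborn wild type liver, TCPOBOP went with higher RNA of folding genes and of Trib3, the opposite direction to the adult for several genes. Of the 32 members 12 were higher and 2 lower than with corn oil, against 24.6% higher and 11.3% lower among all tested genes (35.9% called in all). The groups did not overlap for 20 members higher and 2 lower, against 30% and 17.5% of all tested genes. The members' median log2 change was 0.36, against 0.04 over all tested genes. Fitting the 6 libraries alone gave 21 higher and 2 lower. The number that closes the read file names separated all TCPOBOP from all corn oil libraries here. It could therefore not be entered as a factor and cannot be told apart from the ligand. Scaling by median of ratios moved the split of all calls to 53.5% higher, against 68.6% as deposited, and the members to 11 higher and 2 lower. Among markers, 4 of 10 Kupffer cell genes were higher (summed 769.8 to 909.3 FPKM with TCPOBOP and 647.7 to 674.9 FPKM with corn oil), 5 of 10 stellate cell genes were lower (177.5 to 241.6 FPKM with TCPOBOP and 265.4 to 282.7 FPKM with corn oil), and 4 of 12 hepatocyte genes were lower and 2 higher (84919 to 90447 FPKM with TCPOBOP and 117890 to 128924 FPKM with corn oil); their part in the result was not tested.

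Trib3 had the largest change of any member with a ligand, with 16.6, 20.9 and 19.96 FPKM with TCPOBOP, against 2.27, 1.74 and 1.22 FPKM with corn oil (2.89 ± 0.27, adjusted p = 8.02e-08). Every TCPOBOP library was several times as high as every corn oil library. Ern1 had 11.9, 15.2 and 12.9 FPKM with TCPOBOP, against 6.84, 5.73 and 5.43 FPKM with corn oil (1.03 ± 0.09, adjusted p = 1.15e-08), also without overlap. Ppp1r15a had 8.43, 8.54 and 8.37 FPKM with TCPOBOP, against 6.22, 5.82 and 7.098 FPKM with corn oil (0.36 ± 0.10, adjusted p = 0.00713), with no overlap, but without the 3 acinar libraries its change was 0.30 and was not called (adjusted p = 0.1). Atf3, with 1.35, 2.04 and 1.49 FPKM with TCPOBOP, against 0.902, 0.9647 and 1.03 FPKM with corn oil (0.41 ± 0.16, adjusted p = 0.0504), and Asns, with 17.2, 19.3 and 14.1 FPKM with TCPOBOP, against 11.2, 14.1 and 10.6 FPKM with corn oil (0.46 ± 0.18, adjusted p = 0.0506), missed the threshold narrowly. Atf4 had 43.2, 49.7 and 48.9 FPKM with TCPOBOP, against 45.4, 39.1 and 39.05 FPKM with corn oil (0.20 ± 0.10, adjusted p = 0.132). Xbp1 had 68.5, 79.3 and 68.6 FPKM with TCPOBOP, against 63.1, 64.5 and 69.1 FPKM with corn oil (0.13 ± 0.09, adjusted p = 0.292). Ddit3 had 4.05, 4.42 and 4.22 FPKM with TCPOBOP, against 5.58, 3.83 and 4.08 FPKM with corn oil (-0.06 ± 0.13, adjusted p = 0.762). None of these 3 passed, and their groups overlapped.

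Of the chaperones, 4 rose and none fell. Manf had 32.2, 32.1 and 31.7 FPKM with TCPOBOP, against 14.9, 18.99 and 18.9 FPKM with corn oil (0.84 ± 0.17, adjusted p = 0.0005). Hyou1 had 36.9, 35.5 and 33.6 FPKM with TCPOBOP, against 19.1, 20.9 and 19.8 FPKM with corn oil (0.79 ± 0.14, adjusted p = 0.000121). Sdf2l1 had 13.7, 13.3 and 11.7 FPKM with TCPOBOP, against 5.97, 8.55 and 7.62 FPKM with corn oil (0.74 ± 0.18, adjusted p = 0.00309). No TCPOBOP library overlapped the corn oil libraries in these genes. Calr had 462, 512 and 426 FPKM with TCPOBOP, against 311, 358 and 331 FPKM with corn oil (0.48 ± 0.08, adjusted p = 9.18e-05), and TCPOBOP replicate 2, an acinar library, was its highest. Hspa5 had 309, 270.3 and 310.5 FPKM with TCPOBOP, against 206, 239.5 and 223 FPKM with corn oil and did not pass (0.41 ± 0.17, adjusted p = 0.0751), although its groups did not overlap. Creld2 had 20.03, 20.3 and 17.2 FPKM with TCPOBOP, against 12.6, 13.01 and 15.8 FPKM with corn oil (0.45 ± 0.18, adjusted p = 0.0561). Dnajb11 had 30.01, 29.6 and 30.3 FPKM with TCPOBOP, against 23.5, 27.3 and 24.4 FPKM with corn oil (0.25 ± 0.11, adjusted p = 0.0706). Dnajc3 had 34.2, 25.3 and 31.96 FPKM with TCPOBOP, against 23.5, 24.3 and 22.1 FPKM with corn oil (0.36 ± 0.15, adjusted p = 0.0566). These 3 also stood higher with TCPOBOP in every library without passing, while the groups of Hsp90b1, with 245, 203 and 255 FPKM with TCPOBOP, against 204, 221 and 205 FPKM with corn oil (0.15 ± 0.17, adjusted p = 0.54), overlapped.

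All 3 isomerases rose in newborn wild type liver. Pdia4 had 126, 117 and 121 FPKM with TCPOBOP, against 70.3, 80.8 and 79.2 FPKM with corn oil (0.66 ± 0.10, adjusted p = 3.41e-05). Pdia6 had 126, 125 and 126 FPKM with TCPOBOP, against 88.2, 96.8 and 93.1 FPKM with corn oil (0.44 ± 0.06, adjusted p = 4.83e-06). Pdia3 had 180.3, 164 and 184 FPKM with TCPOBOP, against 133, 150.1 and 145 FPKM with corn oil (0.30 ± 0.09, adjusted p = 0.0134), a call lost without corn oil replicate 1 (adjusted p = 0.0714) or TCPOBOP replicate 3 (adjusted p = 0.0556). The TCPOBOP libraries were the higher ones in all 3 genes.

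The degradation genes split. Derl1 had 45.3, 47.1 and 44.9 FPKM with TCPOBOP, against 33.1, 32.99 and 35.04 FPKM with corn oil (0.43 ± 0.06, adjusted p = 3.77e-06). Derl3 had 0.673, 1.196 and 0.982 FPKM with TCPOBOP, against 0.3201, 0.3499 and 0.243 FPKM with corn oil (0.57 ± 0.14, adjusted p = 0.00243), both higher and without overlap, Derl3 at levels near 1 FPKM or below. Syvn1 had 17.8, 20.8 and 18.2 FPKM with TCPOBOP, against 15.4, 14.4 and 15.7 FPKM with corn oil and did not pass (0.30 ± 0.26, adjusted p = 0.396). Herpud1 had 43.5, 55.2 and 46.1 FPKM with TCPOBOP, against 69.6, 67.3 and 70.5 FPKM with corn oil (-0.52 ± 0.16, adjusted p = 0.0172). Sel1l had 33.4, 33 and 31.03 FPKM with TCPOBOP, against 41.3, 40.9 and 41.2 FPKM with corn oil (-0.33 ± 0.10, adjusted p = 0.0154), both lower and without overlap. The calls of Herpud1 and Sel1l were lost without TCPOBOP replicate 3 (adjusted p = 0.0537 and 0.0578), that of Herpud1 also without TCPOBOP replicate 1 (adjusted p = 0.0702), and that of Sel1l also without the 3 acinar libraries (adjusted p = 0.071).

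The TCPOBOP response differed between ages in most of the member chaperones and isomerases. The response at day 60 minus the response at day 5 was lower for 18 members and higher for 1, against 9.76% lower and 13.7% higher among all tested genes (23.4% called in all). Lower were 9 of 11 chaperones and 3 of 3 isomerases. Among them, Sdf2l1 differed by -2.06 ± 0.26 (adjusted p = 5.1e-06), Creld2 by -2.04 ± 0.25 (adjusted p = 4.87e-06), Hyou1 by -1.43 ± 0.20 (adjusted p = 1.33e-05) and Hspa5 by -0.89 ± 0.25 (adjusted p = 0.0121). For Hyou1, Sdf2l1, Pdia3, Pdia6 and Derl3 both single-age responses were called, higher at day 5 and lower at day 60. How many of all tested genes did so was not computed. Derl3 had the largest difference, -2.88 ± 0.19 (adjusted p = 7.18e-10). Trib3, which rose at both ages, rose less at day 60 (-1.48 ± 0.38, adjusted p = 0.0079), and Atf3 rose more (1.16 ± 0.22, adjusted p = 0.000668). The difference was not called for Ern1 (-0.29 ± 0.13, adjusted p = 0.115), Derl1 (0.09 ± 0.08, adjusted p = 0.475) or Sel1l (-0.05 ± 0.15, adjusted p = 0.851). The calls of Hsp90b1, Asns and Chac1 were lost without any of 9 or 10 of the 12 libraries. Without corn oil replicate 1 of day 60, the difference of Syvn1 was -0.75, against -1.27 ± 0.37 (adjusted p = 0.0154) with it. The Syvn1 difference was not called with the libraries compared fitted alone (adjusted p = 0.106) or without the acinar libraries (adjusted p = 0.082), nor was that of Herpud1 without the acinar libraries (adjusted p = 0.0753). The same difference was lower for 7 and higher for 0 of 12 hepatocyte markers (median -0.43), and lower for 3 and higher for 1 of 9 erythroid markers (median -0.74). Summed erythroid markers at day 60 were 454.7 to 852.3 FPKM with TCPOBOP and 861.9 to 1181 FPKM with corn oil, and at day 5 3320 to 4205 FPKM with TCPOBOP and 2873 to 3909 FPKM with corn oil; the part of these markers in the result was not tested.

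In hCAR-TG livers the CITCO response differed between ages for 10 members, 7 lower and 3 higher at day 60, against 4.62% lower and 5.37% higher among all tested genes (9.99% called in all). Lower were Creld2 (-1.18 ± 0.25, adjusted p = 0.00583), Sdf2l1 (-1.13 ± 0.26, adjusted p = 0.00831), Manf, Hyou1, Dnajb11, Calr and Pdia6, and higher were Herpud1 (0.86 ± 0.23, adjusted p = 0.0214), Chac1 and Ppp1r15a (0.60 ± 0.14, adjusted p = 0.00963). Herpud1 fell with CITCO at day 5 and did not pass at day 60. Ppp1r15a likewise fell at day 5 only, with 4.42, 4.06 and 4.95 FPKM with CITCO, against 2.995, 3.62 and 4.598 FPKM with corn oil at day 60 (0.22 ± 0.10, adjusted p = 0.207). The calls of Manf and Chac1 were lost without 7 and 10 of the 12 libraries, each left out in turn. The same difference was higher for 7 of 10 endothelial markers (median 0.42) and 4 of 9 intestinal epithelial markers (median 1.86), and lower for none of either. Summed endothelial markers at day 60 were 130.0 to 140.2 FPKM with CITCO and 116.7 to 129.0 FPKM with corn oil, and at day 5 154.4 to 167.2 FPKM with CITCO and 197.5 to 217.5 FPKM with corn oil; their part in the result was not tested.

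At day 5 the CITCO response was below the TCPOBOP response for 17 members and above it for 0, against 22.2% lower and 11.5% higher among all tested genes (33.7% called in all). Trib3 differed by -2.86 ± 0.38 (adjusted p = 1.97e-05), Ern1 by -0.95 ± 0.13 (adjusted p = 1.18e-05), Atf3 by -0.98 ± 0.22 (adjusted p = 0.00252) and Pdia4 by -1.01 ± 0.14 (adjusted p = 3.08e-05). Of the members higher with TCPOBOP at day 5, 6 were lower with CITCO (Hyou1, Sdf2l1, Pdia4, Pdia6, Derl1 and Ppp1r15a). Their CITCO calls were lost without 1 or another single library. This overlap was not computed over all tested genes and was not tested. Herpud1 was lower with both ligands, and its responses differed by -0.24 ± 0.23 (adjusted p = 0.436). The same difference was lower for 7 of 9 intestinal epithelial markers (median -2.50) and 6 of 10 endothelial markers, and higher for 5 of 12 hepatocyte markers (median 0.32). Summed intestinal epithelial markers were 145.6 to 159.6 FPKM with CITCO and 164.3 to 278.2 FPKM with corn oil in hCAR-TG livers. In wild type livers they were 850.2 to 1419 FPKM with TCPOBOP and 140.6 to 195.8 FPKM with corn oil. The list was mixed there, with 3 of 9 markers higher and 1 lower (median -0.04). Lypd8, Defa24, Defa2, Muc2 and Reg3g were under 0.1 FPKM in every TCPOBOP library, and with corn oil Defa2 alone was. The part of these markers in the result was not tested.

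Age itself separated most members in the corn oil groups, as it did most of all tested genes. At day 60 against day 5, 21 of 32 members were higher and 5 lower in hCAR-TG mice, against 24.3% higher and 47.3% lower among all tested genes (71.6% called in all), and 23 were higher and 3 lower in wild type mice, against 25.2% higher and 44.9% lower among all tested genes (70.2% called in all). The ages did not overlap for 19 members higher and 6 lower in hCAR-TG livers, against 24.2% and 46.3% of all tested genes (70.5% in either direction). In wild type livers they did not overlap for 22 members higher and 4 lower, against 26.8% and 47.5% (74.3% in either direction). The 21 genes higher in hCAR-TG were all among the 23 higher in wild type livers. This overlap was not computed over all tested genes and was not tested. The median change of the members was 0.45 in hCAR-TG and 0.87 in wild type livers, while that of all tested genes was -0.17 in hCAR-TG and -0.14 in wild type livers. Scaling by median of ratios moved the median of all genes by 0.19 in hCAR-TG and 0.15 in wild type livers. It moved the split of all calls to 50.2% higher in hCAR-TG, against 33.9% as deposited, and to 49.5% in wild type livers, against 36.0%. With it 25 members were higher and 4 lower in hCAR-TG and 26 higher and 3 lower in wild type livers: Canx, Pdia3, Derl1 and Atf4 in hCAR-TG and Derl1, Atf4 and Ddit3 in wild type livers were then called higher in addition. Markers of blood, Kupffer, endothelial, stellate and bile duct cells fell with age: all 10 Kupffer and all 10 neutrophil markers were lower at day 60 in both genotypes. Summed Kupffer markers were 206.7 to 282.4 FPKM at day 60 and 641.5 to 1041 FPKM at day 5 in hCAR-TG livers. In wild type livers they were 276.0 to 314.4 FPKM at day 60 and 647.7 to 674.9 FPKM at day 5. Summed hepatocyte markers were lower at day 60 too, at 54797 to 63162 FPKM, against 108681 to 118976 FPKM at day 5, in hCAR-TG livers. In wild type livers the hepatocyte sums were 49594 to 59798 FPKM at day 60 and 117890 to 128924 FPKM at day 5. The part of these markers in the result was not tested.

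All 11 chaperones rose with age in wild type livers and 10 of 11 in hCAR-TG livers, where Canx did not pass. Sdf2l1 changed by 1.82 ± 0.18 (adjusted p = 1.95e-08) in hCAR-TG and 2.61 ± 0.18 (adjusted p = 1.01e-10) in wild type livers. Creld2 changed by 1.004 ± 0.179 (adjusted p = 4.58e-05) in hCAR-TG and 2.56 ± 0.18 (adjusted p = 1.13e-10) in wild type livers, and Hyou1 by 1.12 ± 0.14 (adjusted p = 3.38e-07) in hCAR-TG and 2.03 ± 0.14 (adjusted p = 5.01e-11) in wild type livers. The libraries of both ages, given above with the ligand comparisons, did not overlap for these genes. Hspa5 changed by 0.54 ± 0.17 (adjusted p = 0.00905) in hCAR-TG livers, a call lost without corn oil replicate 3 of day 5 (0.36, adjusted p = 0.0771), and by 1.18 ± 0.17 (adjusted p = 5.08e-06) in wild type livers. The same library moved Hsp90b1 in hCAR-TG livers to 0.23 (adjusted p = 0.0297) and Pdia4 to 0.16 (adjusted p = 0.139), against 0.56 and 0.29 with it. Dnajb9 had 67.2, 21.4 and 22.6 FPKM at day 60, against 13.6, 14.5 and 17.8 FPKM at day 5 in wild type livers, a change of 1.03 ± 0.28 (adjusted p = 0.00281) that was 0.51 without replicate 1 of day 60.

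Of the other chaperones, Dnajc3, Dnajb9 and Calr rose with age in both genotypes and Canx passed in wild type livers. Dnajc3 had 52.9, 47.95 and 49.2 FPKM at day 60, against 27.4, 25.03 and 14.6 FPKM at day 5 in hCAR-TG mice (1.17 ± 0.15, adjusted p = 3.94e-07) and 23.5, 24.3 and 22.1 FPKM at day 5 in wild type mice, where it changed by 1.53 ± 0.15 (adjusted p = 8.73e-09). Dnajb9 in hCAR-TG mice had 27.2, 28.4 and 33.3 FPKM at day 60, against 18.4, 18.1 and 17.2 FPKM at day 5 (0.69 ± 0.28, adjusted p = 0.0323), a call lost without 5 of the 6 libraries in turn. Calr changed by 0.39 ± 0.08 (adjusted p = 0.000222) in hCAR-TG and 0.60 ± 0.08 (adjusted p = 1.38e-06) in wild type livers. Both Calr sets were separate. Canx had 76.6, 78.4 and 75.5 FPKM at day 60, against 80.7, 76.3 and 49.4 FPKM at day 5 in hCAR-TG mice (0.19 ± 0.12, adjusted p = 0.167) and 89.5, 87.7 and 80.4 FPKM at day 60, against 65.1, 69.7 and 70.8 FPKM at day 5 in wild type mice (0.32 ± 0.12, adjusted p = 0.023), a wild type call lost without 3 of the 6 libraries in turn. Manf changed by 1.06 ± 0.17 (adjusted p = 1.02e-05) in hCAR-TG and 1.69 ± 0.17 (adjusted p = 1.72e-08) in wild type livers, Dnajb11 by 0.80 ± 0.11 (adjusted p = 1.05e-06) in hCAR-TG and 1.23 ± 0.11 (adjusted p = 1.78e-09) in wild type livers, and Hsp90b1 by 1.19 ± 0.17 (adjusted p = 4.12e-06) in wild type livers.

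Among the isomerases, Pdia4 and Pdia6 rose with age in both genotypes and Pdia3 passed in wild type livers alone. Pdia6 changed by 0.42 ± 0.06 (adjusted p = 1.73e-06) in hCAR-TG and 0.64 ± 0.06 (adjusted p = 4.12e-09) in wild type livers. Pdia4 changed by 0.91 ± 0.10 (adjusted p = 1.01e-07) in wild type livers. Pdia3 changed by 0.20 ± 0.09 (adjusted p = 0.0583) in hCAR-TG livers, with overlap, and by 0.52 ± 0.09 (adjusted p = 4.09e-05) in wild type livers, without. Whether these age changes differ between genotypes was not tested.

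Derl2, the third derlin, rose in both genotypes, with 17.5, 18.1 and 18.5 FPKM at day 60, against 11.7, 11.7 and 9.48 FPKM at day 5 in hCAR-TG mice (0.68 ± 0.08, adjusted p = 1.7e-07) and 21.1, 18.4 and 16.4 FPKM at day 60, against 11.6, 11.2 and 12.8 FPKM at day 5 in wild type mice (0.60 ± 0.08, adjusted p = 9.5e-07). It was not called in any ligand comparison. Derl3 had 0.8998, 0.6698 and 0.806 FPKM at day 60, against 0.219, 0.281 and 0.414 FPKM at day 5 in hCAR-TG mice (0.46 ± 0.14, adjusted p = 0.00529) and 14.3, 8.899 and 8.65 FPKM at day 60, against 0.3201, 0.3499 and 0.243 FPKM at day 5 in wild type mice (3.12 ± 0.14, adjusted p = 4.2e-14). Both sets were separate by age, but the level at day 60 was far higher in wild type livers. Derl1 was not called in either genotype (0.01 in hCAR-TG and 0.03 in wild type livers) as deposited, but after scaling by median of ratios it was called higher in both, at 0.23 (adjusted p = 0.000521) in hCAR-TG and 0.21 (adjusted p = 0.00112) in wild type livers.

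The remaining degradation genes mostly rose with age. Edem1 had 40.2, 38.8 and 38.1 FPKM at day 60, against 19.1, 20.5 and 18.3 FPKM at day 5 in hCAR-TG mice (0.98 ± 0.10, adjusted p = 1.55e-08) and 48.9, 36.7 and 35.9 FPKM at day 60, against 15.7, 17.2 and 21.5 FPKM at day 5 in wild type mice (1.11 ± 0.10, adjusted p = 2.55e-09). Syvn1 had 36.99, 30.4 and 34.3 FPKM at day 60, against 15.7, 17.3 and 19.4 FPKM at day 5 in hCAR-TG mice (0.92 ± 0.26, adjusted p = 0.00373) and changed by 1.75 ± 0.26 (adjusted p = 6.25e-06) in wild type mice. Neither gene overlapped between ages. Herpud1 changed by 0.45 ± 0.16 (adjusted p = 0.0192) in hCAR-TG and 1.39 ± 0.16 (adjusted p = 2e-07) in wild type livers, and the hCAR-TG value was 0.25 and not called without replicate 2 of day 60 (adjusted p = 0.162). Sel1l went the other way in hCAR-TG mice, with 31.6, 31.1 and 30.99 FPKM at day 60, against 42.5, 39.9 and 37.7 FPKM at day 5 (-0.35 ± 0.10, adjusted p = 0.00526), a call lost on scaling by median of ratios (-0.12, adjusted p = 0.268).

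Ern1 and Xbp1 were higher at day 60 in both genotypes. Ern1 changed by 1.17 ± 0.09 (adjusted p = 2.25e-10) in hCAR-TG and 1.11 ± 0.09 (adjusted p = 6.04e-10) in wild type livers, and Xbp1 by 0.38 ± 0.09 (adjusted p = 0.00108) in hCAR-TG and 0.40 ± 0.09 (adjusted p = 0.000757) in wild type livers. Atf3 fell in hCAR-TG livers, with 1.04, 0.471 and 0.547 FPKM at day 60, against 1.37, 2.299 and 1.47 FPKM at day 5 (-0.68 ± 0.16, adjusted p = 0.00067), and changed by -0.34 ± 0.16 (adjusted p = 0.0625) in wild type livers. Eif2ak3, the gene of PERK, was not called in either, at 3.14, 3.86 and 4.47 FPKM in day 60 and 4.79, 4.97 and 4.88 FPKM in day 5 hCAR-TG livers, and at 6.35, 2.896 and 2.92 FPKM and 4.22, 4.03 and 4.54 FPKM at the same ages in wild type livers. Without wild type replicate 1 of day 60 it was called lower at day 60, at -0.43 (adjusted p = 8.39e-05), as were Sel1l at -0.25 (adjusted p = 0.00101) and Atf3 at -0.44 (adjusted p = 0.0344). Atf4 changed by 0.17 ± 0.10 (adjusted p = 0.132) in hCAR-TG and 0.08 ± 0.10 (adjusted p = 0.485) in wild type livers and was not called in either as deposited, but in hCAR-TG livers it was called after scaling by median of ratios (0.39, adjusted p = 0.00107). Ddit3 changed by -0.27 ± 0.13 (adjusted p = 0.0594) in hCAR-TG and 0.22 ± 0.13 (adjusted p = 0.13) in wild type livers and did not pass in either.

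The targets of the integrated stress response did not move together with age. Asns had 1.39, 2.79 and 1.91 FPKM at day 60, against 21.8, 15.9 and 20.2 FPKM at day 5 in hCAR-TG mice (-2.76 ± 0.18, adjusted p = 2.32e-11) and 1.58, 0.941 and 0.5704 FPKM at day 60, against 11.2, 14.1 and 10.6 FPKM at day 5 in wild type mice (-2.70 ± 0.18, adjusted p = 4.17e-11), far lower in the adult without overlap. Ppp1r15a had 2.995, 3.62 and 4.598 FPKM at day 60, against 12.01, 14.3 and 12.01 FPKM at day 5 in hCAR-TG mice (-1.55 ± 0.10, adjusted p = 1.29e-11) and 4.296, 3.75 and 4.12 FPKM at day 60, against 6.22, 5.82 and 7.098 FPKM at day 5 in wild type mice (-0.54 ± 0.10, adjusted p = 5.62e-05). Sesn2 was lower too, with log2 changes of -0.98 ± 0.10 (adjusted p = 1.13e-08) in hCAR-TG and -0.63 ± 0.10 (adjusted p = 5.57e-06) in wild type livers. Chac1 had 1.64, 1.05 and 0.881 FPKM at day 60, against 0.0908, 0.117 and 0.157 FPKM at day 5 in hCAR-TG mice (0.95 ± 0.17, adjusted p = 4.67e-05) and 0.941, 1.74 and 1.02 FPKM at day 60, against 0.216, 0.194 and 0.287 FPKM at day 5 in wild type mice (0.84 ± 0.17, adjusted p = 0.000188), higher in the adult without overlap. Trib3 had 2.23, 4.19 and 3.96 FPKM at day 60, against 1.17, 1.13 and 2.702 FPKM at day 5 in hCAR-TG mice (0.76 ± 0.27, adjusted p = 0.0175), where the groups overlapped. In wild type mice Trib3 changed by 0.99 ± 0.27 (adjusted p = 0.00319), also with overlap, and by 0.64 without replicate 3 of day 60.

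**Figure D4:**
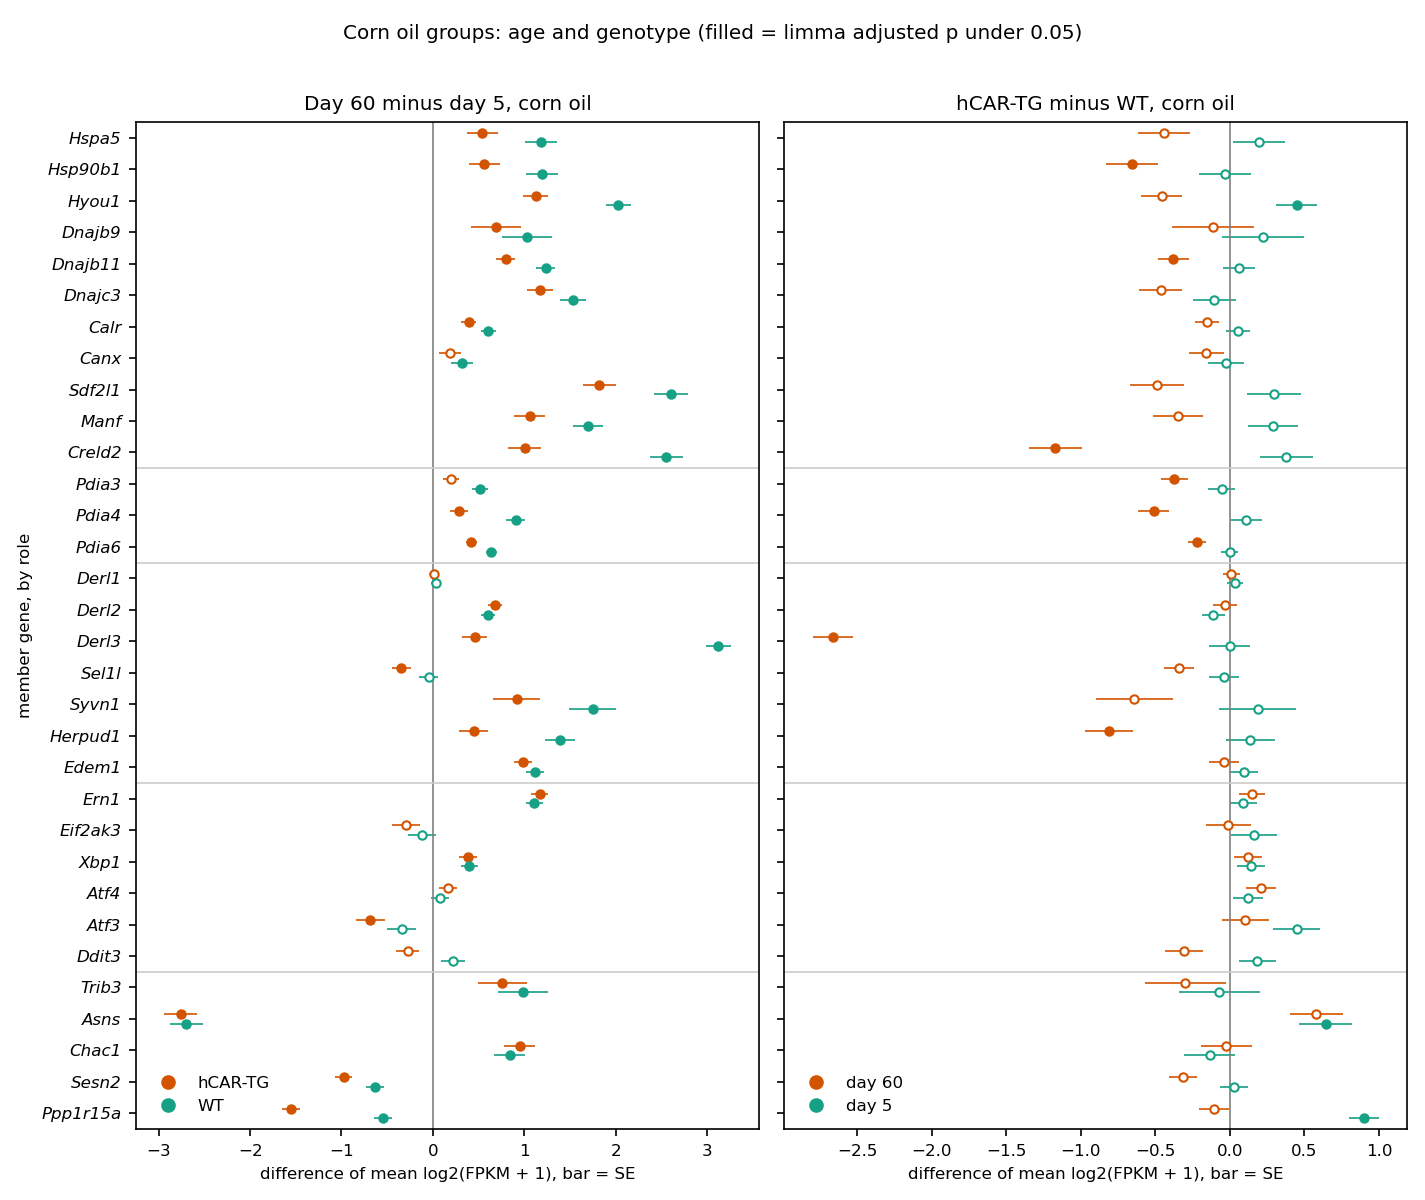
Difference of mean log2(FPKM + 1) with its SE for the 32 members between ages (left) and between genotypes (right) in the corn oil groups; filled points have limma adjusted p under 0.05. The age panel shows folding genes to the right of 0 and Asns near -2.7 in both genotypes; in the genotype panel Derl3 at day 60 (-2.66) and Ppp1r15a at day 5 (0.90) stand apart.

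Between genotypes in corn oil, hCAR-TG livers at day 60 had 8 members lower and 0 higher than wild type livers, against 1.85% lower and 3.05% higher among all tested genes (4.9% called in all). The genotypes did not overlap for 13 members lower and 1 higher, against 11.9% and 13% of all tested genes. The count depended on the libraries and the model: it was 4 without hCAR-TG replicate 2, 5 without hCAR-TG replicate 3, 4 with the 6 libraries fitted alone and 1 with the read file number as a factor. Without wild type replicate 1, 2 were higher and 4 lower: Eif2ak3 was then called higher in hCAR-TG livers at 0.29 (adjusted p = 0.0315), and Asns at 0.77 (adjusted p = 0.0123), while Hsp90b1, Dnajb11, Pdia3 and Pdia6 were not called. Derl3 was the gene called under every alternative tried, with 0.8998, 0.6698 and 0.806 FPKM in hCAR-TG livers, against 14.3, 8.899 and 8.65 FPKM in wild type livers (-2.66 ± 0.14, adjusted p = 6.77e-11). Its wild type libraries lay far above all hCAR-TG libraries. Creld2 had 48.7, 31.99 and 33.6 FPKM in hCAR-TG livers, against 128, 66.8 and 73.3 FPKM in wild type livers (-1.17 ± 0.18, adjusted p = 0.000344). Herpud1 had 93.1, 136 and 88.6 FPKM in hCAR-TG livers, against 206, 176 and 169 FPKM in wild type livers (-0.81 ± 0.16, adjusted p = 0.00419). Pdia4 had 107, 98.6 and 98.3 FPKM in hCAR-TG livers, against 174, 137 and 127 FPKM in wild type livers (-0.51 ± 0.10, adjusted p = 0.00397). All 3 were separate between genotypes and were called whichever library was left out, but not in the 6 libraries alone. Hsp90b1 (-0.66), Dnajb11 (-0.38), Pdia3 (-0.37) and Pdia6 (-0.22) lost their calls without single libraries. Scaling by median of ratios gave 0 higher and 11 lower.

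At day 5, 3 members were higher in hCAR-TG than in wild type livers with corn oil and 0 lower, against 8.29% higher and 2.27% lower among all tested genes (10.6% called in all). The genotypes did not overlap for 8 members higher and 1 lower, against 16.3% and 5.33% of all tested genes. Ppp1r15a had 12.01, 14.3 and 12.01 FPKM in hCAR-TG livers, against 6.22, 5.82 and 7.098 FPKM in wild type livers (0.90 ± 0.10, adjusted p = 2.78e-06), with no overlap. Ppp1r15a was called under every alternative that could be fitted here. The read file number as a factor was not among them. Asns had 21.8, 15.9 and 20.2 FPKM in hCAR-TG livers, against 11.2, 14.1 and 10.6 FPKM in wild type livers (0.64 ± 0.18, adjusted p = 0.0235). Hyou1 had 27.4, 28.6 and 26.7 FPKM in hCAR-TG livers, against 19.1, 20.9 and 19.8 FPKM in wild type livers (0.45 ± 0.14, adjusted p = 0.042). Both were separate but lost their calls without single libraries, leaving 1 member called without wild type replicate 1, wild type replicate 3 or hCAR-TG replicate 1. Without hCAR-TG replicate 3, Hsp90b1 was called higher at 0.31 (adjusted p = 0.0264). Scaling by median of ratios moved the split of all calls to 63.3% higher, against 78.5% as deposited, and the members to 2 higher. In the same comparison 7 of 9 erythroid and 8 of 10 neutrophil markers were higher in hCAR-TG livers, with summed neutrophil markers of 1264 to 1580 FPKM in hCAR-TG and 351.6 to 901.8 FPKM in wild type livers; their part in the result was not tested.

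Among other genes of the same pathways, listed apart from the 32 members, the folding and secretory genes that were called in adult wild type livers were mostly higher with TCPOBOP, as were 66.5% of all called genes as deposited (51.1% after scaling by median of ratios). With TCPOBOP in adult wild type livers, 14 of 27 other ER folding genes were higher and 1 lower, and 21 of 32 genes of translocation and the secretory pathway were higher and 0 lower, against 31.4% higher and 15.8% lower among all tested genes. The isomerase P4hb had 911 ± 43.4 FPKM with TCPOBOP and 563 ± 20.1 FPKM with corn oil (SD, n = 3 each; log2 change 0.69 ± 0.07, adjusted p = 7.68e-08), and Sec61a1, a subunit of the translocation channel, changed by 0.75 ± 0.08 (adjusted p = 5.57e-08). The AAA ATPase gene Vcp, which extracts degradation substrates, changed by 0.57 ± 0.05 (adjusted p = 1.56e-08). Most members and most of these genes that were called thus stood on opposite sides in the same libraries; the lists were not tested against each other. Called genes named here are those with the lowest adjusted p of their list.

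In adult hCAR-TG livers with CITCO, 0 of 27 other folding genes were higher and 5 lower, and 0 of 32 secretory genes were higher and 4 lower, against 4.4% higher and 3.97% lower among all tested genes. Sec23b, of the COPII vesicle coat, changed by -0.68 ± 0.13 (adjusted p = 0.00158). At day 5, 18 of 27 other folding genes were higher and 1 lower with TCPOBOP in wild type livers, and 24 of 32 secretory genes were higher and 0 lower, against 24.6% higher and 11.3% lower among all tested genes, with P4hb at 0.83 ± 0.07 (adjusted p = 1.24e-08). CITCO in hCAR-TG livers at day 5 went with 0 higher and 3 lower of 27 folding genes and with 2 higher and 3 lower of 32 secretory genes, against 8.27% higher and 8.82% lower among all tested genes. Of the 20 other degradation genes, 0 were higher and 1 lower with CITCO at day 60, 2 higher and 1 lower with CITCO at day 5, 6 higher and 2 lower with TCPOBOP at day 60, and 10 higher and 1 lower with TCPOBOP at day 5.

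Other targets of ATF4, again listed apart from the members, were called in every ligand comparison; their counts were not tested against each other. Of 24 tested, 4 were higher and 2 lower with CITCO and 12 higher and 2 lower with TCPOBOP in adults, and 1 higher and 6 lower with CITCO and 12 higher and 2 lower with TCPOBOP at day 5. Among all tested genes 4.4% were higher and 3.97% lower with CITCO and 31.4% higher and 15.8% lower with TCPOBOP in adults, and 8.27% higher and 8.82% lower with CITCO and 24.6% higher and 11.3% lower with TCPOBOP at day 5. The same shares apply to the synthetases and regulators. Slc6a9, a glycine transporter gene, rose with CITCO in adults (0.87 ± 0.09, adjusted p = 1.86e-06) and with TCPOBOP in adults (2.13 ± 0.09, adjusted p = 8.75e-14) and newborns (1.09 ± 0.09, adjusted p = 8.25e-09). Gdf15, a stress-induced secreted factor, had 16.4 ± 4.85 FPKM with CITCO and 3.30 ± 2.16 FPKM with corn oil in adult hCAR-TG livers (2.09 ± 0.32, adjusted p = 0.000362). With age, Psat1, of serine synthesis, fell with Asns (-3.79 in hCAR-TG and -3.19 in wild type livers), and Gpt2, an alanine aminotransferase gene, rose (2.61 in hCAR-TG and 3.40 in wild type livers).

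Of 18 aminoacyl-tRNA synthetase genes, which ATF4 also raises, 0 were higher and 5 lower with CITCO and 12 higher and 0 lower with TCPOBOP in adults. At day 5 the counts were 0 higher and 2 lower with CITCO and 10 higher and 1 lower with TCPOBOP. Of 16 other transducers and regulators of the unfolded protein response, 0 were higher and 2 lower with CITCO and 5 higher and 1 lower with TCPOBOP in adults. Atf6, the gene of the third sensor, rose with age by 0.61 ± 0.06 in hCAR-TG (adjusted p = 2.92e-08) and 0.82 ± 0.06 in wild type livers (adjusted p = 3.24e-10), and with corn oil at day 60 it was lower in hCAR-TG than in wild type livers (-0.42 ± 0.06, adjusted p = 0.000255). Lonp1, the mitochondrial protease gene, rose with TCPOBOP at day 60 (1.30 ± 0.07, adjusted p = 4.63e-12) and day 5 (0.87 ± 0.07, adjusted p = 5.62e-09).

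**Figure D5:**
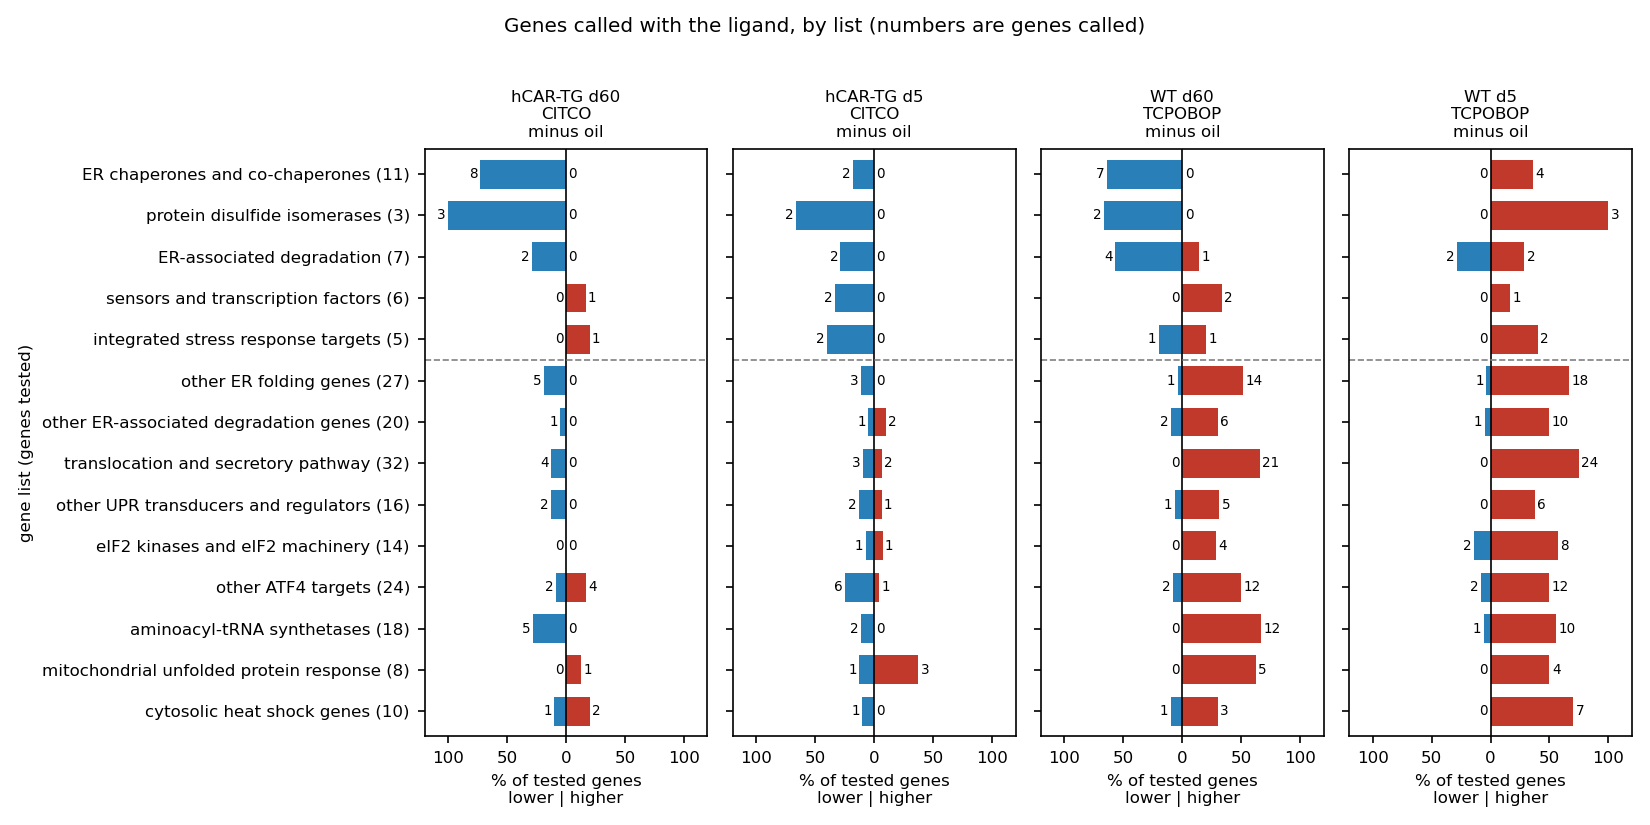
Share of tested genes called higher (red, right) or lower (blue, left) with the ligand, for the 5 roles of the members (above the dashed line) and 9 other pathway lists (below it); numbers are genes called. In adult wild type livers the member chaperones extend to the left (7 of 11 lower) and the other folding and secretory genes to the right (14 of 27 and 21 of 32 higher).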

How the data were processed

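Stranded TruSeq mRNA libraries of 24 liver samples were sequenced, per the labels' protocols, and build mm10 is named in the submitters' processing notes. Per the file headers, the authors deposited 1 table per library with FPKM and its interval; aligner, quantifier and annotation are not given in the sources used here. Each table had 24885 entries (24342 symbols, entries of 1 symbol summed); 27 date-like entries were kept apart, 5 genes with a failed estimate were left out, and 24339 genes remained. FPKM totals were 451546 to 502499, and counting depth can be read only from the intervals.

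All 24 libraries entered a single limma 3.58.1 model (R 4.3.3) of the 8 groups on log2(FPKM + 1), with trended and robust variance, 16 residual degrees of freedom, and a filter of 1 FPKM in 3 or more libraries (12282 genes, all 32 members among them). Tests were two-sided, adjusted by Benjamini-Hochberg over all tested genes and called under 0.05; the script was tested on simulated data. Tables and figures were made with Python 3.11.15, pandas 2.3.3, numpy 2.4.6 and matplotlib 3.10.9. Members and lists were chosen with earlier results of these data known. Values are given for each member called in a comparison and for Hspa5, Xbp1, Atf4 and Ddit3, and up to 4 called genes of lowest adjusted p could be named per other list. Alternatives were median-of-ratios scaling, a pseudocount of 0.1, no filter or 5 FPKM, a replicate block, the number closing the read file names as a factor, the compared libraries alone, each library left out, and, chosen after seeing the data, the 3 acinar libraries left out.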

Additional observations from a re-analysis of the deposited data

Results flagged for a closer look

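Ligand responses differed in 54 cases, either between ages or between CITCO in hCAR-TG and TCPOBOP in wild type livers. In the latter comparison receptor, ligand and genotype differ together. Each case was tested directly as an interaction in limma over all 12282 genes (Benjamini-Hochberg adjusted p under 0.05). Values are differences of log2 changes. In hCAR-TG livers, the CITCO response at day 60 minus that at day 5 passed for 10 members, against 9.99% of all tested genes. Among the chaperones and co-chaperones the difference was -0.70 for Hyou1, -0.66 for Dnajb11, -0.53 for Calr, -1.13 for Sdf2l1, -0.82 for Manf and -1.18 for Creld2. For the disulfide isomerases it was -0.45 for Pdia6. Among the genes of ER-associated degradation the difference was 0.86 for Herpud1. For the targets of the integrated stress response it was 0.79 for Chac1 and 0.60 for Ppp1r15a.

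In wild type livers, the TCPOBOP response at day 60 minus that at day 5 passed for 19 members, against 23.4% of all tested genes. Among the chaperones and co-chaperones the difference was -0.89 for Hspa5, -0.72 for Hsp90b1, -1.43 for Hyou1, -0.77 for Dnajb11, -0.87 for Dnajc3, -0.67 for Calr, -2.06 for Sdf2l1, -1.21 for Manf and -2.04 for Creld2. For the disulfide isomerases it was -0.65 for Pdia3, -0.89 for Pdia4 and -0.58 for Pdia6. Among the genes of ER-associated degradation the difference was -2.88 for Derl3, -1.27 for Syvn1 and -0.84 for Herpud1. For the sensors and transcription factors it was 1.16 for Atf3. Among the targets of the integrated stress response the difference was -1.48 for Trib3, -0.73 for Asns and -0.70 for Chac1. The decrease of Derl3 rests on adult corn oil levels of 8.65 to 14.3 FPKM, against at most 1.53 FPKM in any library of the other groups, and wild type corn oil replicate 1 of day 60 was its highest library.

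At day 60 the CITCO response in hCAR-TG minus the TCPOBOP response in wild type livers passed for 8 members. Among all tested genes 33.8% passed, a larger share than among the members. Among the chaperones and co-chaperones the difference was -0.43 for Calr and -0.83 for Manf. For the disulfide isomerases it was -0.49 for Pdia6. Among the genes of ER-associated degradation the difference was -0.54 for Derl1. For the genes of ER-associated degradation it was 1.74 for Derl3 and 1.46 for Herpud1. Among the sensors and transcription factors the difference was -1.76 for Atf3. For the targets of the integrated stress response it was 1.60 for Chac1. At day 5 the same difference passed for 17 members, all lower, against 33.7% of all tested genes (22.2% lower). Among the chaperones and co-chaperones the difference was -0.67 for Hspa5, -1.20 for Hyou1, -0.57 for Calr, -1.30 for Sdf2l1, -1.22 for Manf and -0.89 for Creld2. For the disulfide isomerases it was -0.41 for Pdia3, -1.01 for Pdia4 and -0.62 for Pdia6. Among the genes of ER-associated degradation the difference was -0.61 for Derl1 and -0.64 for Derl3. For the sensors and transcription factors it was -0.95 for Ern1, -0.53 for Xbp1 and -0.98 for Atf3. Among the targets of the integrated stress response the difference was -2.86 for Trib3, -0.38 for Sesn2 and -0.74 for Ppp1r15a. No group had enough libraries for a search for single outlying samples within it.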

How the results depend on the processing

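All 32 members were followed in each comparison. No call of the shared model turned round under an alternative tried, but 4 values that were not called there changed sign and were then called. They are Hsp90b1 (0.64, adjusted p = 0.000436) and Canx (0.34, adjusted p = 0.0161) for CITCO at day 5 with the read file number as a factor, Eif2ak3 between genotypes at day 60 without wild type corn oil replicate 1 (0.29, adjusted p = 0.0315), and Hsp90b1 between genotypes at day 5 without hCAR-TG corn oil replicate 3 (0.31, adjusted p = 0.0264). Over the libraries left out, these last values ranged from -0.17 to 0.29 for Eif2ak3 and from -0.22 to 0.31 for Hsp90b1. Counts of called members that moved by more than 1.5 times were those of 5 comparisons. With the compared libraries alone, 23 members were called with TCPOBOP at day 5 in wild type livers (14 in the shared model), 3 with CITCO at day 5 in hCAR-TG livers (10 in the shared model), and 4 between hCAR-TG and wild type livers at day 60 (8 in the shared model). With the read file number as a factor, which could be fitted for 7 of the 12 comparisons, the genotype count at day 60 was 1. Without the 3 acinar libraries the CITCO count at day 5 was 6. Leaving out each library in turn gave 2 to 11 calls for CITCO at day 5, 8 to 16 for the CITCO minus TCPOBOP difference at day 60, 4 to 10 between genotypes at day 60 and 1 to 2 between genotypes at day 5. The ranges were 12 to 15 for CITCO and 16 to 20 for TCPOBOP at day 60, and 12 to 16 for TCPOBOP at day 5. Over all members and comparisons, leaving out a library ended 174 calls and made 66 with the sign kept. The cause of these moves was not tested beyond the smaller number of libraries.

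Replicate numbers did not pair the samples: deviations of libraries with the same number correlated from -0.18 to 0.26, and in no comparison was every pair above 0.1. The replicate block ended 1 member call, made 5 and moved no count of calls by more than 1.5 times; with it 16 members were higher and 2 lower with TCPOBOP at day 5 in wild type livers (12 and 2 in the shared model). Scaling by median of ratios ended 6 calls and made 14, a pseudocount of 0.1 ended 5 and made 4, no filter ended 13 and made 0, and a minimum of 5 FPKM ended 0 and made 4 among the members it kept. The compared libraries alone ended 31 and made 25, the read file number ended 22 and made 11 with the sign kept, and leaving out the acinar libraries ended 18 and made 1. Depth limits Chac1, Derl3, Atf3 and Asns most, since their lowest libraries hold few fragments. The read file number, whose meaning the labels do not give, was in part tied to the groups. It could not be fitted for TCPOBOP at day 5, between genotypes at day 5, or between ages in hCAR-TG livers. Nor could it be fitted for the age difference of the TCPOBOP response or the CITCO minus TCPOBOP difference at day 5. Those results are not separated from it.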
